A study of Mus musculus with 3 samples.

Results

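A set of 10 genes around bone morphogenetic protein (Bmp) signalling were followed in mouse embryoid bodies with and without Hopx. They were the Id genes Id1, Id2, Id3 and Id4, the receptor-activated Smads Smad5 and Smad9, the inhibitory Smads Smad6 and Smad7, and the homeobox genes Msx1 and Msx2. They were chosen by name from the pathway, with earlier results of these data known. Every non-control probe whose accession maps to one of these symbols was used. This gave 11 probes for 10 genes, of 19795 genes tested.

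The study compared embryoid bodies lacking Hopx (Hopx-/-, called null) with embryoid bodies carrying 1 working copy (Hopx+/-, called heterozygous) at day 8 of cardiac differentiation. The Hopx protein is a small homeodomain factor of heart and progenitor cells. On each of 3 Agilent two-colour arrays, RNA from 1 culture of each genotype was hybridised together, and every array thus gave a null over heterozygous log2 ratio. The design text calls the 3 pairs biological replicates, and does not say if they came from different stem cell lines or from repeated differentiation of one line per genotype. Both genotypes came from stem cells derived from E3.5 blastocysts on STO feeder cells with a MEK1 inhibitor, and were later kept on mouse embryonic fibroblast feeders with serum and LIF. Both were formed into embryoid bodies in hanging drops of 20 µl and plated in serum-free medium with VEGF (5 ng/ml), bFGF (10 ng/ml), FGF10 (12.5 ng/ml), ascorbic acid (1 mM) and Glutamax (2 mM). No Bmp is named among these additions. A wild-type group was not analysed here, and genotype and stem cell line cannot be told apart. The p-values measure only the spread between these 3 pairs, shared in part between probes.

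Bmp ligands bind paired serine/threonine kinase receptors, which phosphorylate Smad1, Smad5 and Smad9, and these enter the nucleus with Smad4 and act on target genes. Among the best known direct targets are the Id genes, whose helix-loop-helix proteins lack a DNA-binding region and hold E proteins away from their tissue-specific partners, and Smad6 and Smad7, whose products dampen the signal in return. Bmp signals act repeatedly in heart formation, from the induction of cardiac mesoderm to the forming valves, where the Msx genes are expressed.

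Of the 10 genes, 8 were lower in null cultures and 2 were higher at an adjusted p under 0.05 (limma, Benjamini-Hochberg over all probes kept). Over all genes tested, 60.3% were called by the same rule, 30.1% lower and 30.2% higher, so a call by itself sets no gene apart from the rest. All 4 Id genes, both inhibitory Smads, Smad9 and Msx2 were lower, and Smad5 and Msx1 were higher. A change of at least 2-fold was called for 4 genes, Id2, Smad9, Smad6 and Msx2, all lower. Over all 19795 genes tested, 2158 were called at this threshold, 1194 lower and 964 higher. Msx2 was short of 2-fold without array 3 (-0.78), in the authors' deposited table (-0.94) and under median centring (-0.62). Smad9 was just short of it in the authors' deposited table (-0.96), and Smad6 under median centring (-0.90). Id2 had the largest ratio, -2.03, which lay at percentile 0.98 of all genes tested. Of these calls, 3 (Id1, Id3 and Smad7) were lost when the arrays were only median centred, as set out below with their values.

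The direction of the third array rests on the authors' own value table. By the labels, the null culture carried Cy5 on all 3 arrays. As labelled, the log2 ratios of arrays 1 and 2 correlated at 0.94 over probes, while array 3 correlated with them at -0.90 and -0.90. In the authors' deposited table the first 2 columns follow the scanner ratios as labelled (correlation 0.96 and 0.95), and the third runs against them (-0.94). Array 3 was therefore turned as in that table. Hopx itself then had ratios of -2.98, -2.97 and -3.45 (mean -3.13, SE 0.11, adjusted p = 2.74e-07), and its second probe had -2.53 (SE 0.13). With array 3 taken as labelled, limma called 0 of the 10 genes, 0 of them at an unadjusted p under 0.05, and 0 of all 19795 genes, 61 of them at an unadjusted p under 0.05. Without array 3, the other 9 genes kept their calls and Smad7 lost its own.

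The promoters of 4 of the genes that fell are shown because each holds a known Smad-binding motif. For 8 of the 10 genes RefSeq (build GRCm38.p6) gave 280 bases from 250 bases before to 30 bases after a transcription start, 10 promoters in all. Id1 and Smad7 had no promoter in this search, which did not cover every chromosome. A set of 3 motifs was searched on both strands: GGCGCC, a GC-rich element bound by Bmp-activated Smads, GTCTAGAC, the palindromic Smad element, and the short element CAGAC. The motifs were picked after the sequences had been seen. Capitals mark GGCGCC in Id2, Id4 and Smad9 and GTCTAGAC in Smad6, and each sequence runs 5′ to 3′ along its gene.
Id2, chr12:25096063-25096342, minus strand: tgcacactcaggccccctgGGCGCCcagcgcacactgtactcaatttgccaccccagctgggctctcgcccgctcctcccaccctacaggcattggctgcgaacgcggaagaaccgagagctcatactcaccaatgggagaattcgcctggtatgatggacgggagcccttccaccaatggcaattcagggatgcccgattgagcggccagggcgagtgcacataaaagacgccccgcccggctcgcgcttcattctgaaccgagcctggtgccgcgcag
Id4, chr13:48260866-48261145, plus strand: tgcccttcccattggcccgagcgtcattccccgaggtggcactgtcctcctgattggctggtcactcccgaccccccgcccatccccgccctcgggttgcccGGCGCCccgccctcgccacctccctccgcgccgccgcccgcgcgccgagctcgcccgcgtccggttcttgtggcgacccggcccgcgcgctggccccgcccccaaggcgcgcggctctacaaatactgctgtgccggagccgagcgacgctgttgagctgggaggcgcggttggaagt
Smad9, chr3:54755332-54755611, plus strand: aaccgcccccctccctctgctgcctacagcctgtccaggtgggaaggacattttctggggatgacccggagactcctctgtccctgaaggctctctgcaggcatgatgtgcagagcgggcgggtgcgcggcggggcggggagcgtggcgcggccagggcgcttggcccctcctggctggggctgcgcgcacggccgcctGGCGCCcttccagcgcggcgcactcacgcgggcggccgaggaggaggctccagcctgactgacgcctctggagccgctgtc
Smad6, chr9:64022030-64022309, minus strand: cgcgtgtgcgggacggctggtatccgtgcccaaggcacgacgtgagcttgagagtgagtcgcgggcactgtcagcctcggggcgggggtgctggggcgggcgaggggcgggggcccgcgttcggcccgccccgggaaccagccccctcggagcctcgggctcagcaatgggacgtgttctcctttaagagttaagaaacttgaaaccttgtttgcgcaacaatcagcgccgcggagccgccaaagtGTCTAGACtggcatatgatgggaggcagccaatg

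GGCGCC lay 231 to 226 bases before the start of Id2, 148 to 143 before that of Id4 and 51 to 46 before that of Smad9. It also occurred in 2 overlapping promoters of Smad5, which was higher and not lower in null cultures, 24 to 29 bases after the first start and 19 to 14 before the second, which is the same site. Of all 32851 promoters of this length, 10.9% held GGCGCC. GTCTAGAC spanned the start of Smad6, from 4 bases before it to the 4th base after it, and 0.192% of all promoters held it. CAGAC, present in 46.8% of all promoters on one strand or the other, was found at 167 to 163 and 68 to 64 bases before the start of Id3 and at 21 to 17 before the third start of Smad5. None of the matches overlapped a match of another motif. The promoters of Msx1 and Msx2 held none of these letters within the window. A match describes the sequence alone, since binding was not measured.

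Id2 changed most. Its normalized log2 signal was 10.20, 10.70 and 11.08 in null cultures and 12.11, 12.98 and 12.99 in heterozygous cultures on arrays 1, 2 and 3. The null cultures all lay below the lowest heterozygous culture, although both genotypes were lower on array 1 than on the other arrays. The log2 ratio was -1.91, -2.29 and -1.90, a 4.09-fold lower level in null cultures (mean -2.03, SE 0.10, adjusted p = 1.21e-06). The SE given here and below is limma's moderated SE, which shares spread between probes, and the SD over the 3 arrays was 0.22. The authors' deposited table listed -1.76, -1.99 and -2.14 for this probe. Since these are bulk cultures, fewer cells that express a gene and less of its RNA per cell cannot be told apart.

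Id4, which unlike its relatives is mostly known from neural and germ-line tissue, was the next of the Id genes. Its signal was 7.54, 7.45 and 7.49 in null cultures against 8.37, 8.45 and 8.32 in heterozygous cultures. The replicates of each genotype lay within a narrow band, with SDs of 0.046 and 0.065, and the bands were well apart. The ratio was -0.82, -0.996 and -0.82, or 1.84-fold lower (mean -0.88, SE 0.09, adjusted p = 4.06e-05).

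Id1 and Id3, the Id genes most often used as a readout of Bmp signalling, moved less. Id1 had signals of 12.43, 12.27 and 12.52 in null cultures and 13.05, 12.87 and 13.10 in heterozygous cultures. Its ratio after loess was the steadiest of the 10 genes, at -0.62, -0.60 and -0.58 (SD 0.021), which is 1.52-fold lower (mean -0.60, SE 0.08, adjusted p = 0.000274). The authors' deposited table listed -0.43, -0.34 and -0.74 for Id1, which is less even. Id3 had signals of 12.60, 12.45 and 12.23 in null cultures and 13.22, 12.76 and 12.76 in heterozygous cultures. Its ratio after loess varied more than that of Id1, at -0.62, -0.31 and -0.53, and was 1.40-fold lower (mean -0.49, SE 0.09, adjusted p = 0.00188). For both genes the 3 null levels lay below the 3 heterozygous levels.

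The size of the Id1 and Id3 ratios came largely from the loess step, which removes any trend of the ratio with spot brightness. Before any normalization the null over heterozygous ratio of Id1 was 0.13, -0.11 and 0.02 on arrays 1 to 3, and that of Id3 was 0.14, 0.18 and 0.10. With each array only median centred, Id1 had -0.09, -0.29 and -0.13 and Id3 had -0.09, 0.0025 and -0.05. Loess took a further 0.53, 0.31 and 0.45 from Id1 and 0.53, 0.31 and 0.47 from Id3. These are bright spots, and among the 4001 probes with a mean log2 intensity above 12 the median-centred ratio had a median of 0.56, 0.37 and 0.41, against 0.04, -0.01 and 0.11 among the 9716 probes below 8. This trend ran towards the null culture on array 3 too, where the dyes were turned. Whether it belongs to the cultures or to the hybridization was not tested, and relative to other bright probes Id1 and Id3 were lower while relative to the array as a whole they did not pass the test (adjusted p = 0.215 and 0.733 in the median-centred limma fit).

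**Figure D1:**
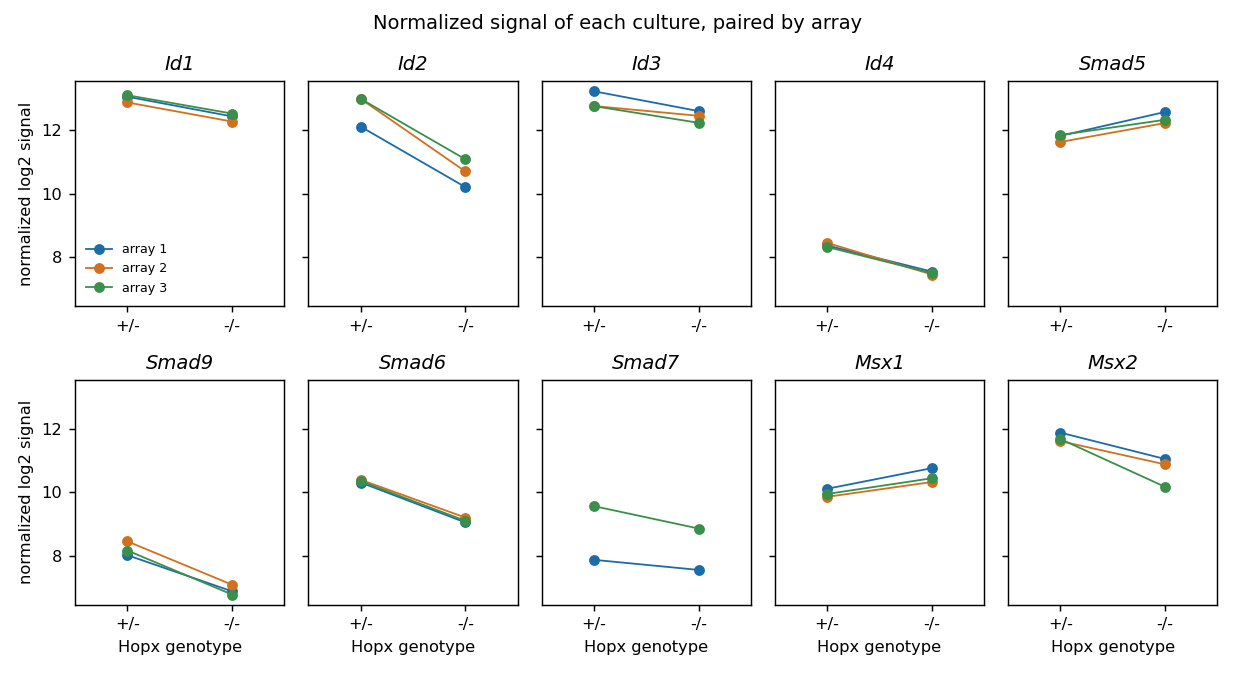
Normalized log2 signal (vertical axis) of the brightest probe of each gene in heterozygous (+/-) and null (-/-) cultures (horizontal axis), with a line joining the 2 cultures of an array. Lines fall from heterozygous to null for 8 genes and climb for Smad5 and Msx1, and Smad7 has 2 arrays with its levels spread over a wider range than the difference between genotypes.

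The receptor-activated Smads moved in opposite directions. Smad9, also known as Smad8, had signals of 6.88, 7.09 and 6.78 in null cultures and 8.02, 8.45 and 8.16 in heterozygous cultures. The genotypes were apart on every array, and the ratio was -1.14, -1.37 and -1.39, or 2.46-fold lower (mean -1.30, SE 0.09, adjusted p = 6.30e-06). Its probe is the dimmest of the 10, and its size moved with the processing. The ratio was -1.53 with no background subtraction and -2.08 when the processed signals of the scanner software, which differ in background correction and normalization at once, were used.

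Smad5, by contrast, was higher in null cultures. Its brighter probe had signals of 12.57, 12.22 and 12.33 in null cultures and 11.82, 11.63 and 11.85 in heterozygous cultures, again without overlap. The ratio was 0.75, 0.60 and 0.48, or 1.53-fold higher (mean 0.61, SE 0.09, adjusted p = 0.000442). A second Smad5 probe is dim, with a mean log2 intensity of 6.92, and had ratios of 0.18, 0.23 and 0.15. Its mean of 0.19 (SE 0.08) did not pass the threshold (adjusted p = 0.0765), and the mean over both probes was 0.40. On each array Smad9 lay below Smad5 by a like amount, the difference between their log2 ratios being -1.89, -1.96 and -1.87 (mean -1.91, SD 0.050). With 3 arrays an exact two-sided permutation test of such a difference cannot go below p = 0.25.

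Among the inhibitory Smads, Smad6, which blocks Bmp receptors and their Smads most selectively, was clearly lower. Its signal was 9.05, 9.20 and 9.10 in null cultures and 10.31, 10.39 and 10.35 in heterozygous cultures, with SDs of 0.078 and 0.043. The ratio was -1.26, -1.19 and -1.25, or 2.35-fold lower (mean -1.23, SE 0.08, adjusted p = 4.93e-06). The spread between arrays was small for a difference of this size.

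Smad7, which restrains both Bmp and Tgf-beta receptors, was measured less well. Its spot on array 2 carried the scanner's outlier mark and was left out, so that n = 2. Its signal was 7.55 and 8.86 in null cultures and 7.87 and 9.56 in heterozygous cultures on arrays 1 and 3, so the levels of the genotypes overlapped. Within each array the null culture was the lower one, at -0.32 and -0.71, or 1.43-fold lower (mean -0.51, SE 0.13, adjusted p = 0.00943). With the outlier spot kept, a choice made after the data had been seen, array 2 gave -0.61. The call rested on array 3, without which the adjusted p was 0.0722 for the lone ratio of -0.32, assumed to vary as other probes do. Without array 1 the ratio was -0.71. The median-centred fit gave -0.18 (adjusted p = 0.294), and the authors' deposited table listed -0.64 and -0.20 for arrays 1 and 3, a mean of -0.42 that did not pass the threshold either (adjusted p = 0.0683).

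The Msx genes, homeobox repressors that respond to Bmp in limb, tooth, neural crest and heart cushions, also split. Msx2 had signals of 11.05, 10.88 and 10.17 in null cultures and 11.88, 11.61 and 11.68 in heterozygous cultures. The heterozygous cultures were alike, while the null culture of array 3 was the lowest by a clear margin. The ratio was accordingly uneven, at -0.83, -0.73 and -1.51, or 2.03-fold lower (mean -1.02, SE 0.14, SD over arrays 0.42, adjusted p = 0.000340). The authors' deposited table showed the same array standing out, at -0.65, -0.51 and -1.67. Msx1 had signals of 10.76, 10.32 and 10.44 in null cultures and 10.11, 9.85 and 9.95 in heterozygous cultures. All 3 null levels lay above the heterozygous ones, and the ratio was 0.65, 0.47 and 0.49, or 1.45-fold higher (mean 0.54, SE 0.09, adjusted p = 0.000695). The difference between the ratios of Msx1 and Msx2 was 1.48, 1.20 and 2.00.

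**Figure D2:**
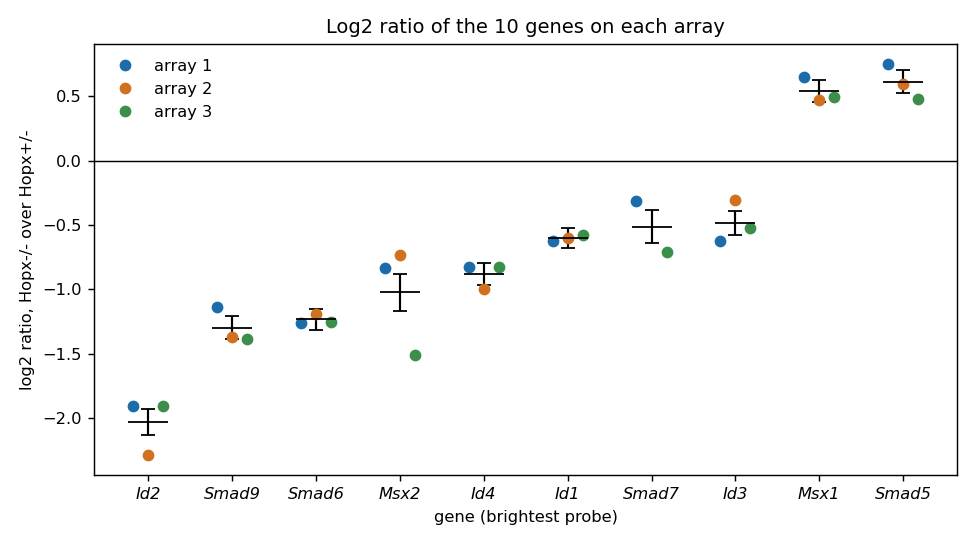
Log2 ratio of null over heterozygous cultures (vertical axis) for the brightest probe of each gene (horizontal axis, ordered by mean), with a point per array, a bar at the mean and whiskers of 1 moderated SE. Id2 lies lowest at -2.03, Msx2 has its array 3 point at -1.51 apart from the others, and Msx1 and Smad5 lie above 0 on all arrays.

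Ordered from the lowest to the highest ratio, the genes ran Id2, Smad9, Smad6, Msx2, Id4, Id1, Smad7, Id3, Msx1 and Smad5. Some steps in this order were the same on every array. Id2 minus Smad9 was -0.77, -0.92 and -0.52, although with the scanner's processed signals the mean ratios were nearly level (-2.12 for Id2 and -2.08 for Smad9). Id2 was also below Id1 on all arrays (-1.28, -1.68 and -1.33), below Id3 (-1.28, -1.98 and -1.38) and below Id4 (-1.08, -1.29 and -1.08), so the Id genes did not move by an equal amount. Id4 was below Id1 by a smaller margin (-0.20, -0.39 and -0.25). In the authors' deposited table this order was reversed on array 3, with -0.71, -0.87 and -0.50 for Id4 and -0.43, -0.34 and -0.74 for Id1. Id3 was below Msx1 on all arrays (-1.27, -0.78 and -1.02).

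Other neighbours could not be put in order. The difference of Smad6 from Smad9 was -0.12, 0.17 and 0.14, that of Smad6 from Msx2 was -0.43, -0.46 and 0.26, and that of Msx2 from Id4 was -0.01, 0.26 and -0.68. Id1 and Id3 differed by 0.0037, -0.29 and -0.05, and Msx1 and Smad5 by -0.10, -0.13 and 0.01. Each of these pairs changed sign between arrays. Smad7 had no fixed place beside Id1 (-0.30 and 0.13 for Id1 minus Smad7) or Id3 (0.31 and -0.18 for Smad7 minus Id3), while Smad6 was below it on both arrays that measured it (-0.94 and -0.54).

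All 11 probes were well above background in both genotypes on all arrays and none was saturated, so all 10 genes passed the filter on dim probes. For 9 of the 10 genes the null and heterozygous levels did not overlap, Smad7 being the exception. All 10 had ratios of equal sign on every array that measured them. Neither count was made over all genes tested, so these counts do not set apart the 10 genes. The plot of ratio against brightness shows them spread from dim probes (Smad9, Id4) to bright ones (Id1, Id3), with most of them inside the cloud of all genes.

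**Figure D3:**
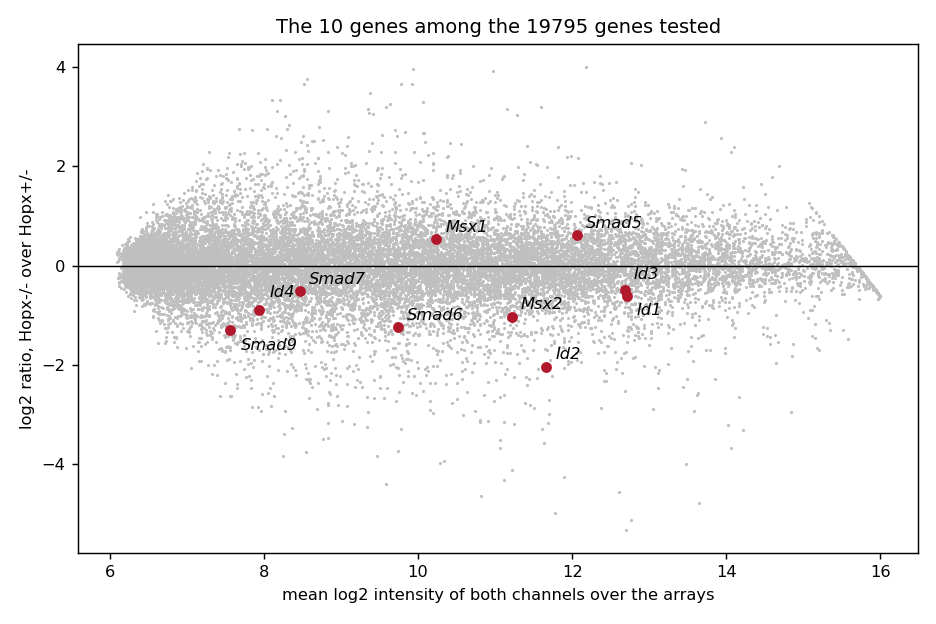
Log2 ratio of null over heterozygous cultures (vertical axis) against the mean log2 intensity of both channels (horizontal axis) for 19795 genes (grey) and the 10 genes described (red). Id2 lies below most genes of its brightness, while Id3, Id1, Smad7, Msx1 and Smad5 lie within the bulk.

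The processing moved the sizes of the ratios more than their signs. Under median centring alone the median of all genes was 0.23, and 73.9% of all calls were higher in null cultures, against 50.0% after loess. The lower genes then moved towards 0, with Id2 at -1.63, Smad9 at -1.13, Smad6 at -0.90, Id4 at -0.67 and Msx2 at -0.62, and all 5 kept their calls. Smad5 rose to 1.03 and Msx1 to 0.90. Id4 reached -1.28 with the scanner software's processed signals. Relative to that median of 0.23, the 8 genes that were lower after loess all remained below it.

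**Figure D4:**
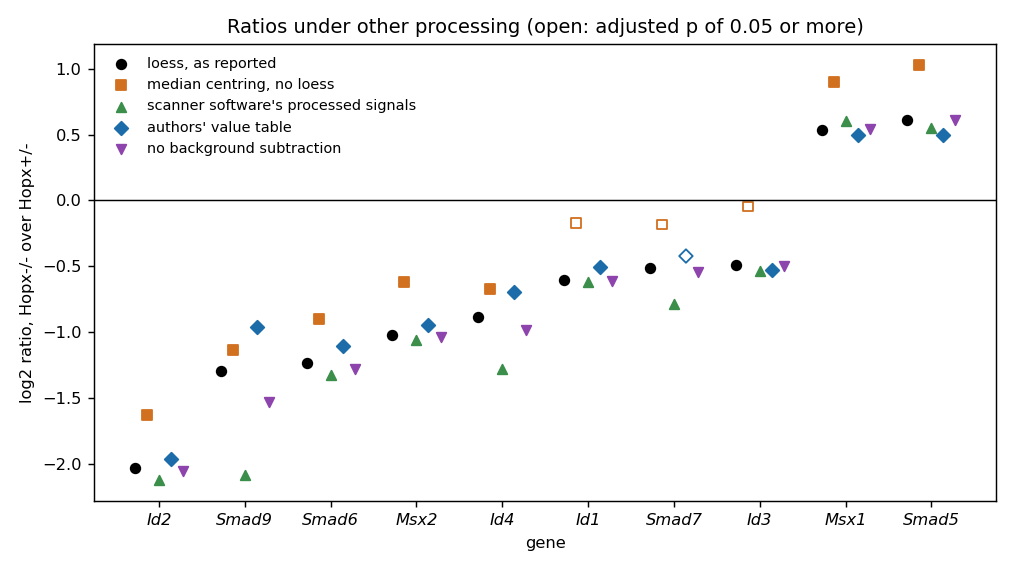
Log2 ratio of null over heterozygous cultures (vertical axis) for each gene (horizontal axis) under 5 kinds of processing, with open symbols where the adjusted p was 0.05 or more. Open symbols occur for Id1, Smad7 and Id3 under median centring and for Smad7 in the authors' value table, and no gene changes its sign.

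Genes whose 3 ratios were nearest to those of Id2 were sought among all named genes tested. Nearest was Apoa1, an apolipoprotein made by visceral endoderm and liver, with ratios of -1.85, -2.25 and -1.99 and a root mean square difference of 0.061 over the 3 arrays. Npl, a sialic acid lyase (0.075), and Akr1c13, an aldo-keto reductase (0.094), followed. With only 3 arrays, likeness of this kind rests mainly on the mean ratio, which was -2.03, -2.03 and -1.97 for these 3 genes.

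The rest of the pathway was read from 10 gene lists, of which 84 of 102 genes passed the filter. Of these, 35 were lower, 27 higher and 22 not called, with a median ratio of -0.01 against 0.0032 for all genes. Among Bmp and Gdf ligands, 6 of the 9 tested were lower and 0 higher (median -0.44). Bmp5 had -1.10 (SE 0.09), and Bmp4 and Bmp2, the ligands best known from cardiac induction, had -0.65 (SE 0.09) and -0.64 (SE 0.08). Bmp7 did not pass the test (0.08). Gdf2 passed the filter only in null cultures and Gdf7 only in heterozygous ones, and among the 7 ligands that passed in both genotypes 5 were lower. Under median centring alone the ligands had 4 lower and 2 higher calls, and Bmp2 (-0.29) and Bmp4 (-0.21) were no longer called.

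Of 8 Bmp receptors, 4 were lower and 2 higher (median -0.25), and 1 of those higher, Bmpr1b, passed the filter only in null cultures. Bmpr2, the type II receptor, had -1.33 (SE 0.08), Acvr1, a type I receptor, had -0.89 (SE 0.09), and Bmpr1a had -0.44 (SE 0.09). Median centring turned the balance to 3 higher and 2 lower, with Bmpr1a at -0.04. Of the 10 extracellular antagonists tested, 3 were lower, among them Nbl1 (-0.85, SE 0.09) and Nog (-0.55, SE 0.09). The antagonists' median was -0.04.

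The Smads outside the 10 genes moved little. Smad1, which shares its role with Smad5 and Smad9, was higher at 0.43 (SE 0.08, adjusted p = 0.00213), closer to Smad5 than to Smad9. Smad3, of the Nodal and Tgf-beta branch, had -0.24 (adjusted p = 0.0295), was not called without replicate 1 (-0.23, adjusted p = 0.124) or replicate 2 (-0.23, adjusted p = 0.132), and turned to 0.19 under median centring. Smad2 (-0.09) and the common partner Smad4 (-0.02) did not pass the test. Of 15 regulators and cofactors of Smads, 7 were lower and 4 higher (median -0.05). Tob1, a repressor of Bmp signalling in bone, had -1.58 over 2 arrays (SE 0.14), Nedd4l, a ubiquitin ligase for Smads, had -1.36 (SE 0.09), and Zfp423, a zinc finger partner of Bmp-activated Smads, had 0.82 (SE 0.08). Median centring gave this list 6 higher and 2 lower calls.

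Of 11 further Bmp response genes, 9 were lower, 0 were higher and 2 were not called (median -0.40). The lowest were the cardiac transcription factor genes Nkx2-5 (-2.23, SE 0.15), Tbx3 (-1.51, SE 0.08) and Tbx20 (-1.04, SE 0.13). Hamp passed the filter only in heterozygous cultures, which leaves 8 lower of 10. Median centring left 5 lower and 1 higher. Of the 4 Msx and Dlx relatives tested, Dlx2 was lower (-0.70, SE 0.11) and the other 3 were not called, of which Msx3 passed the filter only in null cultures. Dlx2 was not called in the authors' deposited table (-0.37, adjusted p = 0.0586 in limma).

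The Nodal and Tgf-beta response genes, which answer to Smad2 and Smad3, ran differently from the Id genes. Of 8 tested, 5 were higher and 3 lower (median 1.15), with Lefty1 at 3.05 (SE 0.09), Lefty2 at 2.06 (SE 0.11) and Nodal at 1.87 (SE 0.11). The E proteins, which the Id proteins bind, were higher for Tcf3 (0.62, SE 0.09) and Tcf12 (0.52, SE 0.10), and Tcf4 was not called (0.04). When the probes of a gene were averaged, Tcf12 was not called (0.12, adjusted p = 0.308) and Tcf4 was called lower (-0.27, adjusted p = 0.0345), while Tcf3 remained higher (0.56). Among the tissue-specific helix-loop-helix partners of E proteins, 12 of the 14 tested were higher and 2 lower (median 0.73). The largest ratios were those of Mesp1, of early cardiac mesoderm (3.76, SE 0.09), Olig1 (3.33, SE 0.16) and Lyl1, of blood progenitors (2.27, SE 0.11). Mesp2, Olig1 and Olig2 passed the filter only in null cultures, and of the 11 that passed in both, 9 were higher and 2 lower.

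**Figure D5:**
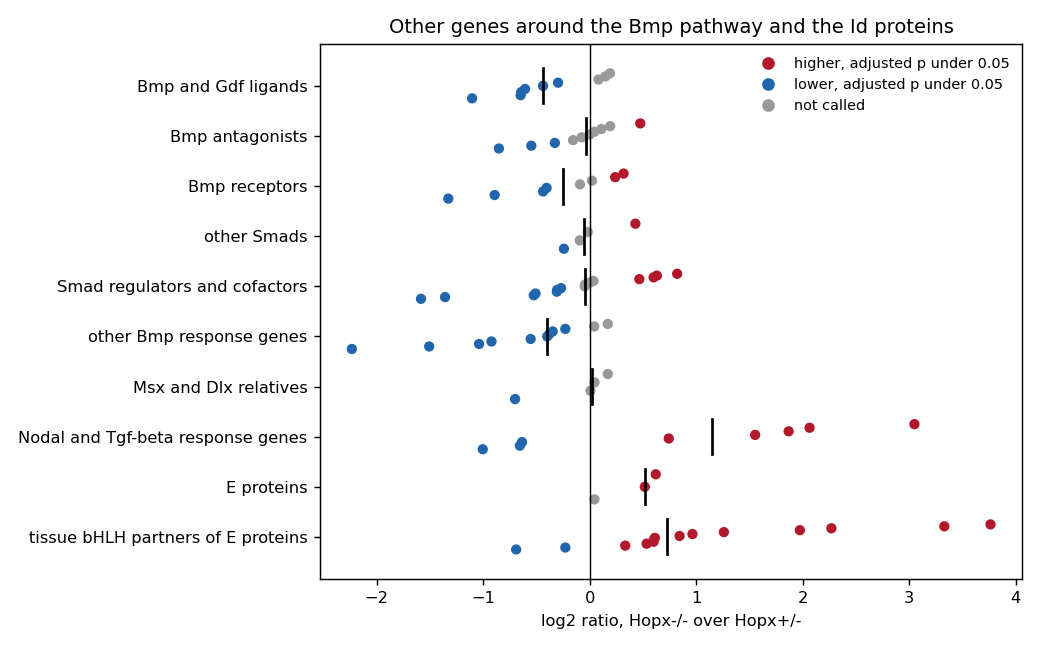
Log2 ratio of null over heterozygous cultures (horizontal axis) of every tested gene in 10 lists around the pathway (vertical axis), coloured by call, with a black bar at each list's median. The medians run from -0.44 for the ligands to 1.15 for the Nodal and Tgf-beta response genes, and the partners of E proteins lie mostly above 0.

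Markers of several cell types moved with genotype, and their part in the ratios of the 10 genes was not tested. The summed normalized signal of 7 cardiomyocyte markers was 21587 to 29839 in null and 153511 to 185507 in heterozygous cultures, and that of 6 visceral endoderm markers was 10978 to 16458 against 100183 to 124880, with all 13 markers lower. The sum of 5 early mesoderm markers was 3189 to 3505 in null and 648 to 714 in heterozygous cultures, where T and Mixl1 were not well above background on any array. Sums were also higher in null cultures for the pluripotent (5160 to 6772 against 2302 to 2819), embryonic blood (133763 to 159393 against 34276 to 61821), endothelial (6482 to 8413 against 2937 to 4060), neural (3118 to 3913 against 809 to 923) and fibroblast and feeder lists (45984 to 66365 against 18965 to 32172). Outlier spots were left out of these sums, so the range of a list can span sums over different markers. Tnnt2 and Col1a1 had no value on array 1, and Postn had none on array 2. Within the pluripotent list 3 markers were higher, but Zfp42 was lower (-1.09). In the fibroblast and feeder list 5 of 6 markers were called higher, and Col1a1 was not called (-0.19). Of the probes' spots, 61.9% to 72.9% were well above background in each channel, and with 3 arrays the precision is limited by their number.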

How the data were processed

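Agilent Feature Extraction made the deposited spot intensity values (version 11.5.1.1 per the file headers, 8.5.1.1 per the submitters' processing notes). The authors deposited a value table of unstated scale, read here as log2 ratios; its column medians were -0.10, -0.11 and 0.07, and how it was normalized is unknown. All arrays came from 1 slide and 1 scan.

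With limma 3.58.1 in R 4.3.3, foreground medians were corrected by normexp (offset 50), normalized by loess within arrays and turned on array 3. For the signals given per culture and the marker sums, the mean intensities of the spots were also quantile normalized between arrays. That step gives the arrays a common intensity distribution and leaves the ratios unchanged. Control and outlier spots were left out. Probes well above background on all 3 arrays in at least 1 genotype were kept (24541 of 39429) and tested against 0 with lmFit and eBayes, adjusted by Benjamini-Hochberg at 0.05, and a gene took its brightest probe. The fit was tested on simulated data. Since 2 arrays have one dye orientation and 1 the other, a dye effect does not cancel fully. A RefSeq gene table (GRCm38.p6) named 28025 probes (71.1%).

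The 10 genes and all lists were chosen with earlier results of these data known. Named are Hopx, the 10 genes, up to 3 called genes of each list with the largest ratios and the 3 genes nearest to Id2; further genes named in a list were chosen after their values were seen. A gene that this rule names is not reported here. Alternatives covered background, normalization, filter, probes, dye, pairing, variance, threshold, each array left out and the authors' table.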

Additional observations from a re-analysis of the deposited data

How the results depend on the processing

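The direction of all 10 genes was kept under every alternative run except array 3 as labelled, where Smad7 turned to 0.19 and limma called 0 of the 10 genes and 0 pathway genes, 0 of either at an unadjusted p under 0.05. Median centring left 5 of the 10 genes called lower and 18 pathway genes lower, with 3008 of all 19795 genes lower. The authors' table left 23 pathway genes lower, with 4256 of all 19794 genes lower. With both channels as separate samples, that is without the pairing by array, 22 pathway genes and 4114 of all 19795 genes were lower. Smad7 then lost its call (adjusted p = 0.594) and Id3 had an adjusted p of 0.0494. An ordinary t statistic with 2 residual degrees of freedom called 5 of the 10 genes, 5 lower and 0 higher (Smad5 and Msx1 then had adjusted p = 0.0599 and 0.0519). The same test called 23 pathway genes, 9 lower and 14 higher, and 3997 of all 19795 genes, 2034 lower and 1963 higher. Asking for at least 2-fold left 4 of the 10 genes, 4 lower and 0 higher, and 17 pathway genes, 8 lower and 9 higher. Of all 19795 genes, this threshold left 2158, 1194 lower and 964 higher. Leaving out each array gave 9 to 10 of the 10 genes and 54 to 60 pathway genes, with 9842 to 11872 of all 19795 genes called. Smad7 could not be fitted with a dye term. With outlier spots kept, added after seeing the data, all 10 calls were kept. With the scanner's processed signals, Smad9, Id4 and Smad7 had -2.08, -1.28 and -0.78.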
